A study of Mus musculus with 18 samples.

Results

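Otx2, Pou3f1, Fgf5, Zic2, Zic5, Sox3, Sox4, Foxd3 and Pim2 are 9 mouse genes grouped as formative and primed epiblast genes, out of 14411 genes measured in the series. They were chosen by name and not by a measured value, but with earlier results of these data known. All 9 had values in EpiLCs, where 13717 genes were measured. In ESCs 8 of the 9 were among the 13104 genes measured, since the ESC table has no row for Fgf5. RNA was measured in 3 libraries for each of 4 groups: ESCs with vehicle, ESCs with 100 nM Δ9-THC, EpiLCs with vehicle and EpiLCs with 100 nM Δ9-THC. Δ9-THC is the main psychoactive compound of cannabis, and the comparison asks whether continuous exposure changed the transcriptome of pluripotent cells. PGCLCs, the germ cell-like cells of the same series, are not analysed here.

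Mouse ESCs (embryonic stem cells) were grown without feeder cells on laminin in 2i+LIF, a medium with a pair of kinase inhibitors and leukemia inhibitory factor that holds them in the naive state. EpiLCs (epiblast-like cells) were made from them on fibronectin with activin A, basic fibroblast growth factor and serum replacement. The vehicle was ethanol, and Δ9-THC was present in the ESC medium and then in the EpiLC medium of the exposed groups. All cells carried the Blimp1::mVenus and Stella::ECFP reporters. The study describes its main cells as the female clone of this line and used a male clone for further checks; the labels name no clone, and the values may describe a single one. The labels call the libraries biological replicates.

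Pluripotency passes from a naive state, as in the preimplantation epiblast, through a formative state to a primed state. The homeobox factor Otx2 and the POU factor Pou3f1 (Oct6) are known as early regulators of this exit, and the growth factor gene Fgf5 is the classical marker of the postimplantation epiblast. Zic2 and Zic5 encode zinc finger factors, Sox3 a SoxB1 and Sox4 a SoxC HMG-box factor, Foxd3 a forkhead factor needed to keep the epiblast, and Pim2 a serine/threonine kinase that promotes survival and growth.

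Zic2 and Zic5 lie close together in the genome. In GRCm38, by the GENCODE M21 annotation, Zic5 (chr14:122456795-122465677, minus strand) and Zic2 (chr14:122475435-122479852, plus strand) are transcribed away from each other with 9757 bases between them that hold another annotated gene, 2610035F20Rik. Sox3 and Pim2 are on chromosome X. Promoter stretches of 3 genes are shown because Pim2 had the highest EpiLC level, Foxd3 moved in the opposite direction to the others, and Otx2 encodes the factor whose motif was searched. RefSeq (GRCm38.p6) gave a start for 6 of the 9 genes, and Otx2 had 4 starts. Each stretch is the 250 bases before a start. Capitals mark the octamer ATGCAAAT of POU factors in Pim2, the cyclic AMP response element TGACGTCA and the E-box CACGTG in Foxd3, and the OTX core TAATCC in the third Otx2 start, each on either strand.

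Pim2, chrX:7878056-7878305, plus strand: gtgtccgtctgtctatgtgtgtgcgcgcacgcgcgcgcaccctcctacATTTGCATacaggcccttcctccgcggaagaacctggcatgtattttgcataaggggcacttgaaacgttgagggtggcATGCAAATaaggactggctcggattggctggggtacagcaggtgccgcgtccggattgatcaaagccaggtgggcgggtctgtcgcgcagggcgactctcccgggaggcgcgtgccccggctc
Foxd3, chr4:99656049-99656298, plus strand: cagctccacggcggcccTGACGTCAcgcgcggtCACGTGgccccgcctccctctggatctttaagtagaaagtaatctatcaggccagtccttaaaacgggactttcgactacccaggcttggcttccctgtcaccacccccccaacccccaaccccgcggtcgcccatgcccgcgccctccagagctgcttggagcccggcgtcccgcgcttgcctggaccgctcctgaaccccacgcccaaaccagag
Otx2, chr14:48665110-48665359, minus strand: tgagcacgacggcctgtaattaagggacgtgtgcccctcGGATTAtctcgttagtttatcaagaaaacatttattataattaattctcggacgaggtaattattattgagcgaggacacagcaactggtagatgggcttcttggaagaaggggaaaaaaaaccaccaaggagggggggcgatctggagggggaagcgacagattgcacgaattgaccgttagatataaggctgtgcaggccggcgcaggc

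The Pim2 stretch holds 2 copies of the octamer, a motif that occurred in 1.60% of all 32851 RefSeq stretches of this length. The Foxd3 stretch holds 1 response element, present in 1.55% of all stretches, and 1 E-box, present in 6.02%. The OTX core was in 6.25% of all stretches and in 1 of the 4 Otx2 stretches. TATAAA was found in 12.4% of all stretches and, among the members, in 1 Otx2 stretch that is not shown. The GC box GGGCGG was found in 32.7% of all stretches, and the Fgf5 and Pim2 stretches each had 1. Stretches of Fgf5, Pim2 and Foxd3 had 24, 22 and 21 CpG dinucleotides against a median of 6 over all stretches, while those of Otx2 had 6 to 14 and those of Sox4 and Zic5 had 11 each. These matches describe the letters only, and binding was not measured.

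Library totals were 23427551 to 32096698 adjusted counts. The authors had adjusted the counts for batch with ComBat-seq, separately for each cell type. After that adjustment, a vehicle library and the Δ9-THC library of the same number deviated from their group means as mirror images, with Pearson's r across genes from -0.99 to -0.98 in both cell types. The tests below treat all libraries as independent, which this pattern goes against. No 2 libraries of a group agreed within sampling noise. The cell types carried their own markers: all 14 naive genes were lower in EpiLCs, and 17 of 19 other formative genes were higher. Genes listed as markers of other cell types were in part present. Of 12 neural, 12 extraembryonic, 12 primitive streak and 8 fibroblast or feeder genes, 6, 6, 5 and 4 had values in EpiLCs and 4, 5, 3 and 2 in ESCs. The fibroblast or feeder genes summed to 5.66 to 7.34 CPM in ESC libraries and 13.9 to 19.6 CPM in EpiLC libraries. The neural and extraembryonic genes summed to more (given with the comparison of the cell types). Tfap2c, at 133 CPM in vehicle ESCs, held most of the extraembryonic sum there, and it was lower in EpiLCs, as the naive genes were. Krt18 was at 65.7 CPM in vehicle EpiLCs. Whether cells of these other types were present was not tested.

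Levels are given as CPM, counts scaled to a common library size by TMM and expressed per 1e+06 counts, a normalization that takes most genes as unchanged. In vehicle EpiLCs the members ran from Foxd3, at 7.21 CPM, to Pim2, at 557 CPM. Compared per kilobase of exon, vehicle EpiLCs were ordered Pim2 (199 CPM per kb), Pou3f1 (39.0), Zic2 (29.3), Sox4 (18.8), Zic5 (18.8), Otx2 (16.2), Sox3 (13.0), Fgf5 (6.28) and Foxd3 (3.10). The libraries of Sox4 and Zic5, of Zic5 and Otx2, and of Otx2 and Sox3 overlapped on this scale, so their order is not set. All other neighbours in the order were separate. Exons of Sox4 share 54.6% of their bases with a gene on the other strand, and reads there go uncounted without strand if the annotation used holds that gene, so its level per kb may be too low. Over its unshared bases it was 41.4 CPM per kb, above Zic2 (29.3) and close to Pou3f1 over its own unshared bases (42.7). The order of Sox4 against Pou3f1 and Zic2 is therefore not set.

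The same genes stood in another order in vehicle ESCs. Zic2 led at 13.7 CPM per kb, followed by Zic5 (7.51), Pim2 (6.58), Foxd3 (5.21), Sox3 (1.94), Otx2 (1.16), Sox4 (1.13) and Pou3f1 (0.997). Libraries overlapped between Pim2 and Foxd3, between Otx2 and Sox4, and between Sox4 and Pou3f1. Over its unshared bases Sox4 was at 2.49 CPM per kb, above Sox3 (1.94). Zic2 was thus ahead of Pim2 in ESCs and behind it in EpiLCs. Pou3f1, next to the top in EpiLCs over all exon bases, was at the bottom in ESCs.

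**Figure D1:**
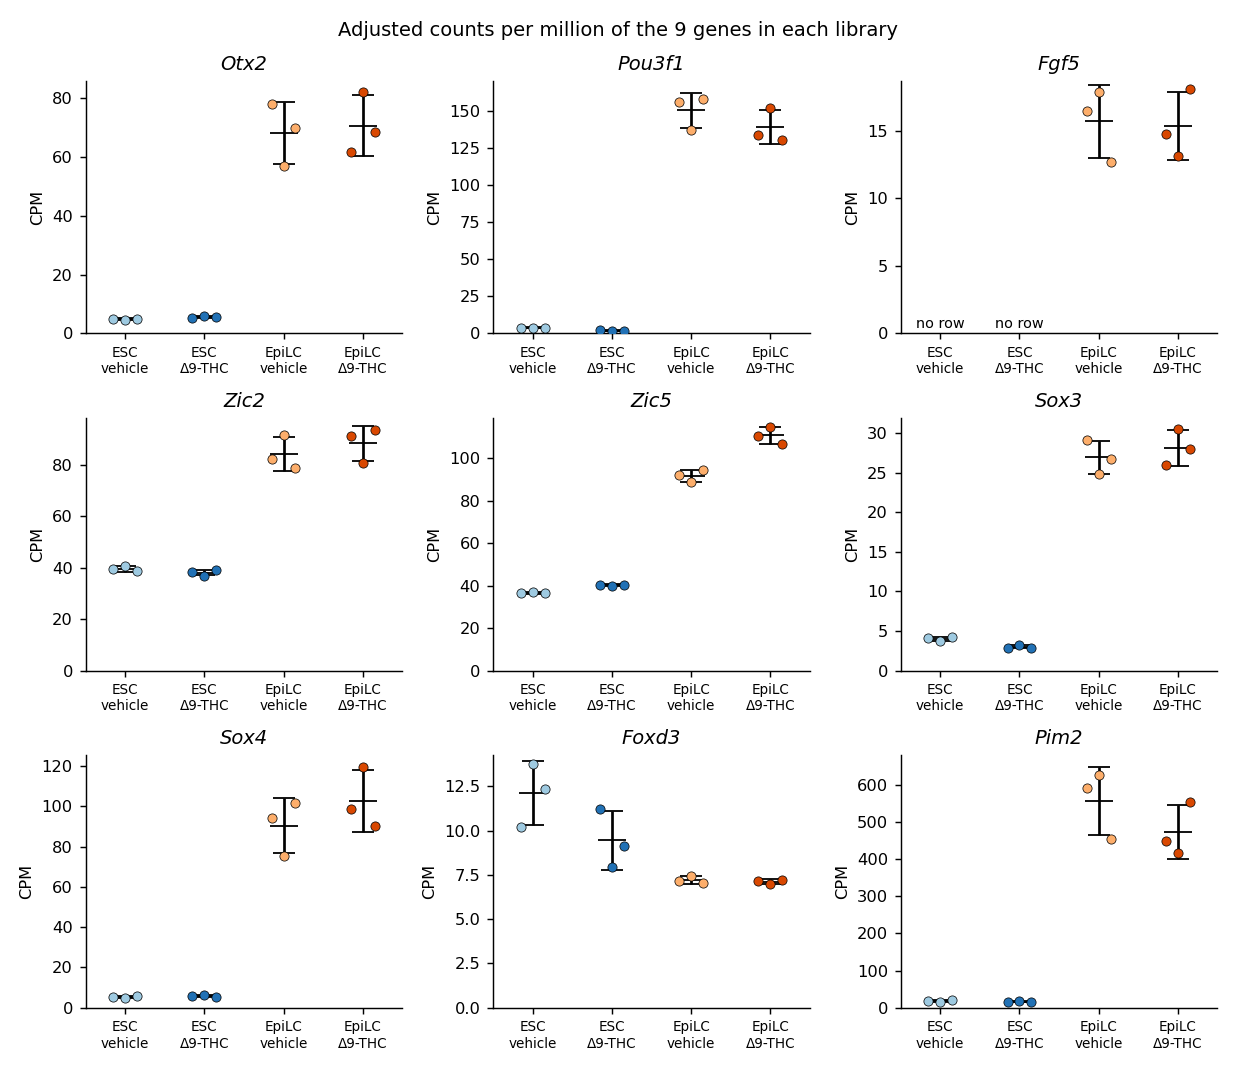
CPM of each of the 9 genes (vertical axis, from 0) in the 3 libraries of each group (points, replicates 1 to 3 from left to right), with the group mean and SD (bars). All EpiLC libraries of 7 genes lie above all ESC libraries, Foxd3 is reversed, and Fgf5 has no row in the ESC table.

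The first comparison asks how the members differed between the cell types. In vehicle cells, 7 of the 8 genes with values in both tables were higher in EpiLCs and 1, Foxd3, was lower, each at an adjusted p of at most 0.05 (edgeR quasi-likelihood test, Benjamini-Hochberg over 12410 genes). Over all genes 36.5% were called higher and 37.2% lower, so a call alone was common. All 7 that rose had a log2(fold-change) above 1, as 11.2% of all genes had. Among them Zic2 alone had a 95% interval that reached below 1 (0.94 to 1.25). With trends with GC content and length removed Zic2 was at 0.95. For all 7 every EpiLC library was above every ESC library, and the reverse held for Foxd3; 37.1% and 38.3% of all genes were separated in these directions. Their median log2(fold-change) with Foxd3 included was 3.28, against 0.0016 for all genes. The tables were batch-adjusted separately, so any difference made by that adjustment cannot be told apart from the cell type. In these bulk samples, a change in the number of cells that express a gene and a change in RNA per cell cannot be told apart either.

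Pou3f1 had the largest rise. Its vehicle ESC libraries held 3.58, 3.94 and 4.0 CPM and its vehicle EpiLC libraries 156, 137 and 158 CPM. The log2(fold-change) was 5.29 ± 0.10 (SE, n = 3 per group; adjusted p = 5.70e-13), a 39.1-fold difference. Pim2 followed, from 18.8, 16.5 and 19.8 CPM in ESCs to 591, 625 and 454 CPM in EpiLCs. Its log2(fold-change) was 4.92 ± 0.15 (adjusted p = 4.09e-11), or 30.3-fold. The ESC level was 2.56% of the EpiLC level for Pou3f1 and 3.30% for Pim2, the lowest shares of the 8 genes.

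Sox4 and Otx2 formed the next pair. Sox4 went from 5.47, 4.86 and 5.94 CPM in vehicle ESCs to 94.1, 75.2 and 102 CPM in vehicle EpiLCs, with a log2(fold-change) of 4.05 ± 0.15 (adjusted p = 1.42e-10). Otx2 went from 5.07, 4.64 and 4.95 CPM to 78.1, 57.0 and 69.8 CPM, with a log2(fold-change) of 3.80 ± 0.14 (adjusted p = 1.42e-10). For both genes the second EpiLC vehicle library was the lowest and the lowest still stood more than 10-fold above every vehicle ESC library. Sox3 rose from 4.07, 3.72 and 4.21 CPM to 29.1, 24.9 and 26.8 CPM, a log2(fold-change) of 2.75 ± 0.09 (adjusted p = 8.73e-11).

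Sox3 and Pim2 rose although X-linked genes as a whole stood lower in EpiLCs. The median log2(fold-change) of 464 X-linked genes was -0.19, against 0.0066 for 11913 autosomal genes.

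The nearby genes Zic2 and Zic5 differed from the others in that ESCs already held a large part of the EpiLC level. Zic2 measured 39.4, 40.7 and 38.6 CPM in vehicle ESCs and 82.3, 91.7 and 78.8 CPM in vehicle EpiLCs. Its log2(fold-change) was 1.09 ± 0.07 (adjusted p = 3.00e-08). Zic5 measured 36.5, 37.2 and 36.4 CPM against 92.0, 88.8 and 94.3 CPM, with a log2(fold-change) of 1.32 ± 0.05 (adjusted p = 1.71e-10). ESC levels were 47.0% of the EpiLC level for Zic2 and 40.0% for Zic5, while those of the other 5 genes that rose were 2.56% to 14.8%.

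Foxd3 ran against the group's name. Its vehicle ESC libraries held 10.2, 13.8 and 12.4 CPM and its vehicle EpiLC libraries 7.18, 7.43 and 7.03 CPM. Every ESC library was above every EpiLC library. Foxd3 fell by 0.74 on the log2 scale (SE 0.13, adjusted p = 0.000217), and the ESC level was 168% of the EpiLC level. With trends with GC content and length removed its log2(fold-change) was -1.07.

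Fgf5 could be described in EpiLCs alone. It held 16.5, 17.9 and 12.7 CPM with vehicle and 14.8, 13.2 and 18.1 CPM with Δ9-THC. At 444 counts per vehicle library on average it was well above the lowest gene total of the EpiLC table, 80 counts over 6 libraries. Its absence from the ESC table gives no level, since genes with few counts had been removed.

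**Figure D2:**
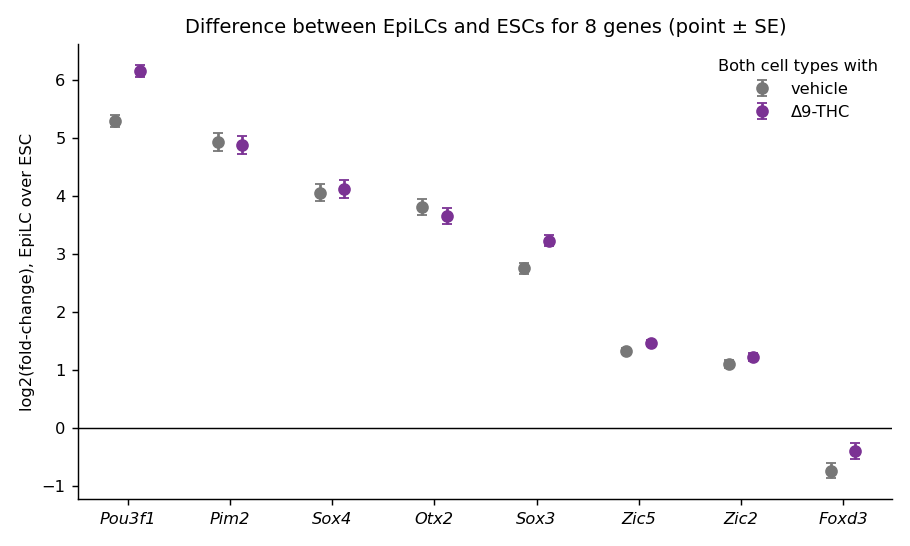
The log2(fold-change) of EpiLCs over ESCs (vertical axis, point ± SE, n = 3 libraries per group) for 8 genes, in vehicle (grey) and in Δ9-THC (purple). The 7 genes on the left are above 0 in both, from 1.09 for Zic2 to 6.15 for Pou3f1, and Foxd3 is below 0 in both.

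Exposed cells gave the same 7 rises and the same fall. Of all genes, 35.7% were called higher and 36% lower between exposed ESCs and exposed EpiLCs. Libraries of the 7 rising genes and of Foxd3 were again fully separated, as were those of 36.6% of all genes in the first direction and 37.7% in the second. Rises were 6.15 ± 0.11 for Pou3f1, 4.88 ± 0.16 for Pim2, 4.12 ± 0.15 for Sox4, 3.65 ± 0.14 for Otx2, 3.22 ± 0.10 for Sox3, 1.46 ± 0.05 for Zic5 and 1.22 ± 0.07 for Zic2 (log2, ± SE). Foxd3 had a log2(fold-change) of -0.40 ± 0.13 (adjusted p = 0.0161), and this call was lost without exposed ESC replicate 1 (log2(fold-change) of -0.26, adjusted p = 0.0846). With trends with GC content and length removed it was -0.92 (adjusted p = 0.000120).

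Other genes of the formative state moved with the members. Of 19 other formative genes with values in both tables, 17 rose in vehicle EpiLCs, 12 of them with a log2(fold-change) above 1, and 2 fell. Their median log2(fold-change) was 2.64. The largest rises were in Dnmt3l, a cofactor of de novo DNA methylation (4.10 ± 0.13), and Sox11, a SoxC factor like Sox4 (3.74 ± 0.16). Cdh2, which encodes N-cadherin, and Etv5, an ETS factor downstream of FGF signalling, were the genes that fell, with log2(fold-change) of -1.30 ± 0.13 and -0.44 ± 0.09. Of 14 naive genes, 14 fell, with a median of -3.89; Tbx3 (-6.99 ± 0.10) and Prdm14 (-6.44 ± 0.10), both transcription factor genes of naive cells, fell the most. Among 6 core pluripotency genes 3 rose, led by Utf1 (2.64 ± 0.09) and Dppa4 (0.82 ± 0.07), and 2 fell, Sox2 (-2.03 ± 0.11) and Sall4 (-1.04 ± 0.07). Utf1 is on both lists and also counts among the 17 other formative genes that rose.

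Markers of other cell types moved alongside. Neural genes summed to 96.0 to 106 CPM in vehicle ESCs (4 genes) and 129 to 154 CPM in vehicle EpiLCs (6 genes). These sums, like those below, do not cover the same genes. Sox1 (1.49 ± 0.19) and Nes (0.78 ± 0.10) rose and Lhx2 fell (-1.03 ± 0.19). Tubb3, at 54.1 CPM in vehicle ESCs and 51.3 CPM in vehicle EpiLCs, was not called (-0.076 ± 0.070). Markers such as Neurog2, Hes5, Pax3 and Six3 had no row. Extraembryonic genes summed to 158 to 161 CPM (5 genes) and 108 to 144 CPM (6 genes). The keratins Krt18 (3.85 ± 0.20) and Krt8 (1.60 ± 0.09) rose and Tfap2c (-2.70 ± 0.09) and Gata4 (-1.59 ± 0.17) fell, while Cdx2, Elf5, Hand1, Gata6, Sox7 and Gata3 had no row. Of primitive streak genes only Eomes had values in both tables, and it fell (-1.30 ± 0.18). Among fibroblast or feeder genes Thy1 rose (2.42 ± 0.17) and Col1a1 fell (-1.23 ± 0.12). Their part in the members' differences was not tested.

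**Figure D3:**
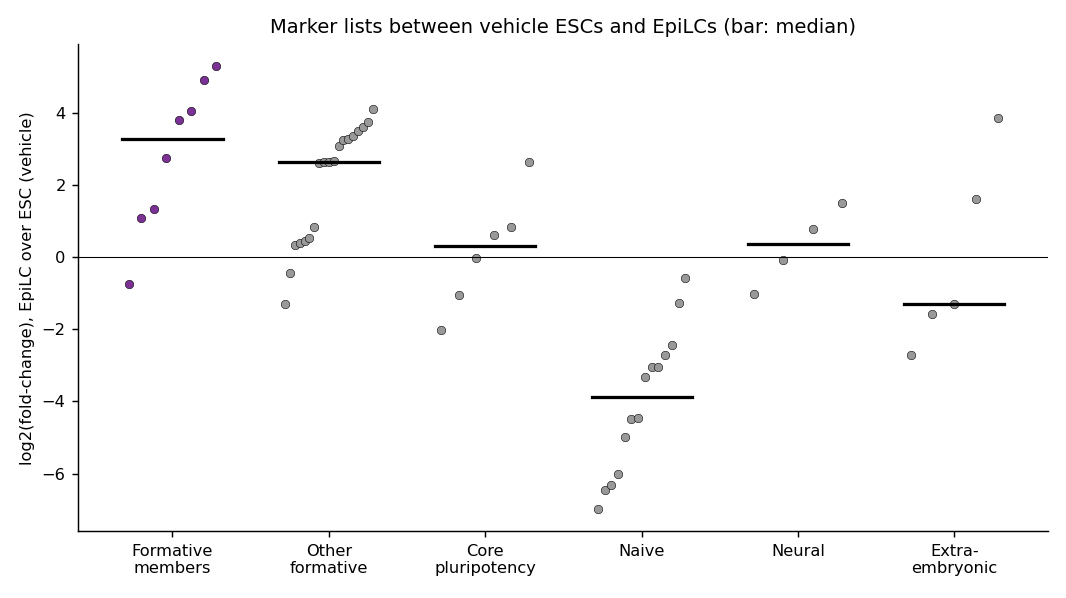
The log2(fold-change) of vehicle EpiLCs over vehicle ESCs (vertical axis) for single genes (points) of 6 lists, with each list's median (bar). Medians were 3.28 for the members, 2.64 for the other formative genes and -3.89 for the naive genes.

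For each member the genes with the most similar profile over the 12 libraries were found, by the root mean square distance between centred log2 CPM values. This is a description that rests mostly on the difference between the cell types. Closest to Otx2 were Ina (distance 0.15), Dlg4 (0.16) and Hes6 (0.17), and closest to Sox4 were Elavl3 (0.12), Slc23a1 (0.16) and Krt18 (0.17). Zic2 had the closest company, with Sestd1 (0.049), Armcx2 (0.064) and the Polycomb gene Phc1 (0.065), and Zic5 stood near Sept3 (0.086), Nudt10 and Inpp1 (0.090 each). Pou3f1 had the most distant neighbours, Kif1a (0.33), Xist (0.44; 2.2 CPM in vehicle ESCs and 143 CPM in vehicle EpiLCs) and Enpp3 (0.44). The nearest genes to Sox3 were Mael (0.13), Cacng7 and Arhgdig (0.14 each), those to Pim2 were Pcdh1 (0.077), Mmp25 (0.22) and Lrp2 (0.24), and those to Foxd3 were Pycr1 (0.088), Mpi (0.094) and Tyro3 (0.095). The median distance of all genes was 0.40 from Foxd3 and 2.76 from Pou3f1.

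The second comparison asks what exposure did within ESCs. Pou3f1 and Sox3 were lower and Zic5 was higher with Δ9-THC, and the other 5 genes were not called. Of all 13104 genes 6.91% were called, 3.37% higher and 3.55% lower; without TMM factors the split was 197 higher and 1135 lower. Each of the 3 calls was lost when any 1 library was left out and when trends with GC content and exon length were removed.

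Pou3f1 had the largest difference. Vehicle ESC libraries held 3.58, 3.94 and 4.0 CPM, or 117, 108 and 113 counts. Exposed libraries held 2.16, 1.86 and 1.82 CPM, or 52, 56 and 44 counts. The groups did not overlap, the log2(fold-change) was -0.96 ± 0.10 and the adjusted p was 0.0265. Without any 1 library the adjusted p ranged from 0.0721 to 0.134, with log2(fold-change) from -1.04 to -0.92.

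Sox3 was the other gene that fell. Its values were 4.07, 3.72 and 4.21 CPM with vehicle and 2.91, 3.22 and 2.86 CPM in exposed libraries, for a log2(fold-change) of -0.40 ± 0.09 (adjusted p = 0.0498). The lowest vehicle library was above the highest exposed one. Leaving out any 1 library gave adjusted p from 0.101 to 0.157.

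Zic5 rose slightly. Vehicle libraries held 36.5, 37.2 and 36.4 CPM and exposed ones 40.4, 39.7 and 40.5 CPM, a log2(fold-change) of 0.15 ± 0.03 (adjusted p = 0.0461). These groups did not overlap, and the spread within them, 1.21% and 1.13% of the mean, was below the 3.04% and 3.09% that counting error alone gives. Leaving out any 1 library gave adjusted p from 0.0967 to 0.151, and the call was also lost with total-count scaling (0.102) and DESeq2 (0.185). Zic2, close to it in the genome, held 39.4, 40.7 and 38.6 CPM with vehicle and 38.2, 37.0 and 38.9 CPM with Δ9-THC, and the groups overlapped. The log2(fold-change) of Zic2 was -0.042, with a 95% interval from -0.13 to 0.050.

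Otx2 libraries did not overlap, at 5.07, 4.64 and 4.95 CPM with vehicle and 5.41, 5.85 and 5.59 CPM with Δ9-THC. The difference did not pass, with a log2(fold-change) of 0.22 ± 0.07 and an adjusted p of 0.122. In all, 4 of 8 genes had groups that did not overlap, and so did 33% of all genes. Sox4 had 0.14 (95% interval -0.11 to 0.39), Foxd3 -0.35 (-0.72 to 0.027) and Pim2 -0.18 (-0.39 to 0.036) on the log2 scale, and their groups overlapped.

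**Figure D4:**
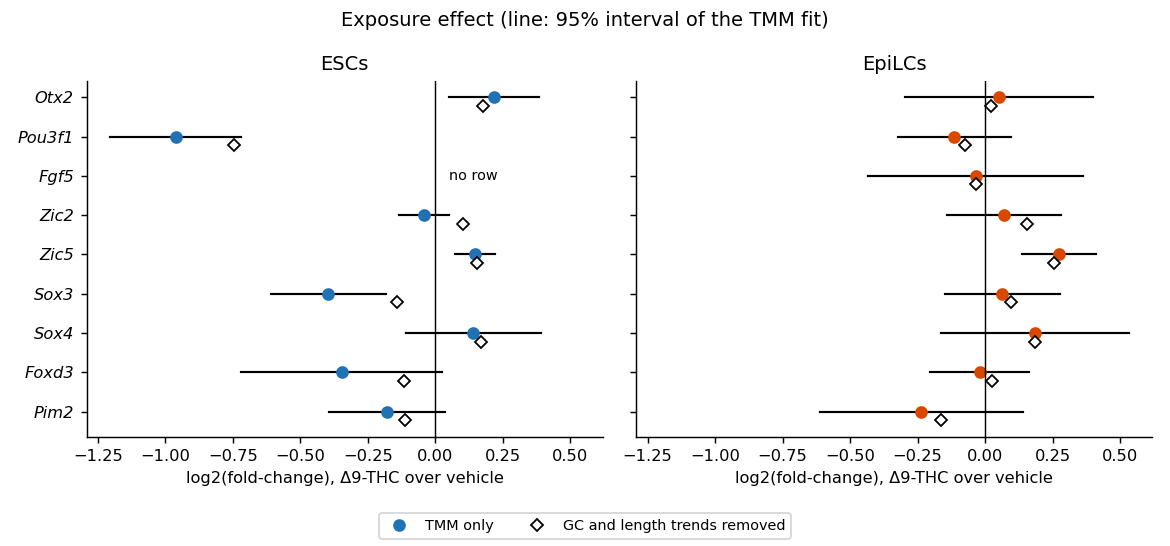
The log2(fold-change) of Δ9-THC over vehicle (horizontal axis) in ESCs (left) and EpiLCs (right), with the 95% interval (line, n = 3 libraries per group); diamonds give the value once trends with GC content and length were removed. In ESCs Sox3 moves from -0.40 to -0.14 and Pou3f1 from -0.96 to -0.74, and in EpiLCs Zic5 alone has an interval that leaves out 0.

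The GC content of a gene's transcript moved with the exposure effect in ESCs. Over 13083 genes, which are not independent replicates, Spearman's rho between GC content and log2(fold-change) was -0.54. Sox3 (66.4% GC), Foxd3 (65.1%) and Pou3f1 (63.9%) had more GC than 99.8%, 99.7% and 99.5% of the ESC genes, and Zic2 (59.9%) more than 95.8%. With the GC and length trends removed, Pou3f1 had a log2(fold-change) of -0.74 (adjusted p = 0.0814), Sox3 -0.14 (0.536), Foxd3 -0.11 (0.742) and Zic5 0.15 (0.101). Zic2 changed sign, to 0.10. Zic5, with 49.8% GC, was near the median of 49.7% and hardly moved. The cause of the trend was not tested.

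**Figure D5:**
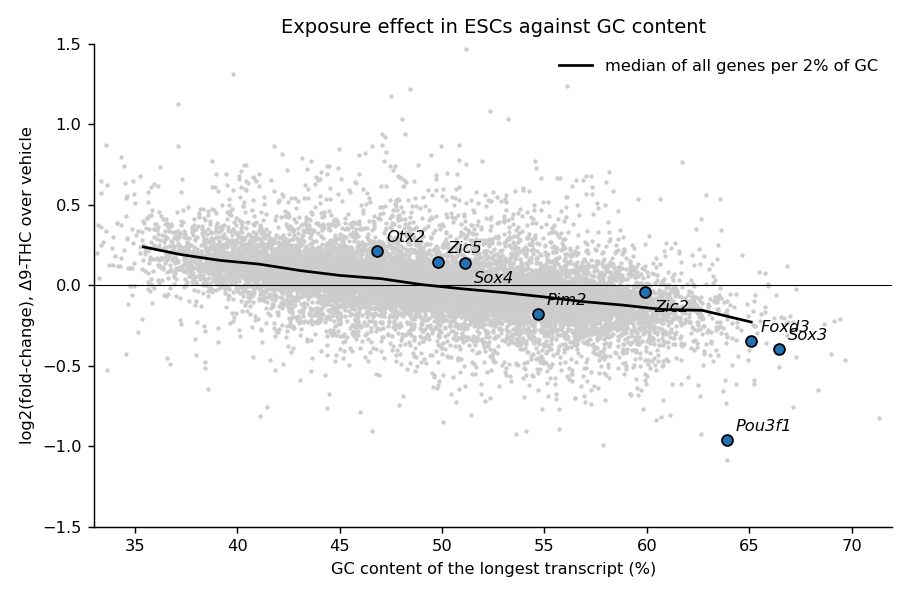
The log2(fold-change) of Δ9-THC over vehicle in ESCs (vertical axis) against GC content of the longest transcript (horizontal axis, in percent), for all genes (grey; 1 lies outside the vertical and 8 outside the horizontal range) and 8 members (blue), with the median per bin of GC (line). Sox3 and Foxd3 lie close to the downward trend, and Pou3f1 lies further below it, at -0.96.

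Among the other lists, Nodal, a TGF-beta family ligand, was the one of 19 other formative genes called in exposed ESCs, with a log2(fold-change) of -0.21 ± 0.04 (adjusted p = 0.0385). Of all genes 6.91% were called, and only 0 to 1 genes when any 1 library was left out. None of the 14 naive, 6 core, 3 primitive streak, 4 neural, 5 extraembryonic and 2 fibroblast or feeder genes tested was called by edgeR, while 4, 2, 0, 2, 0 and 0 of them had an unadjusted p under 0.05. Such a p was common, since 28.7% of all genes had one. Neural genes summed to 84.0 to 92.9 CPM with Δ9-THC, below every vehicle ESC library. Of all single genes, 18.8% were separated in this direction. Tubb3 (48.0 CPM) and Nes (34.1 CPM) held most of that sum, and edgeR called neither (adjusted p = 0.0752 and 0.0589). The members' sum was separated too, at 119 to 122 CPM against 123 to 126 CPM with vehicle. No share was computed for sums of several genes, and neither sum was tested or corrected for the trend with GC content.

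The third comparison is the exposure within EpiLCs. No member and none of the 13717 genes was called by edgeR on the 6 EpiLC libraries (0%), although 2069 genes had an unadjusted p under 0.05, or 15.1%, DESeq2 called 87, and edgeR with all 12 libraries in 1 model called 411. Of the members, 1 of 9 had an unadjusted p under 0.05.

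That gene was Zic5. Vehicle EpiLC libraries held 92.0, 88.8 and 94.3 CPM and exposed ones 111, 115 and 107 CPM, so that every exposed library was higher. The log2(fold-change) was 0.27 ± 0.06 with an adjusted p of 0.161, and with all 12 libraries in 1 model the adjusted p was 0.0189. It was the only member of the 9 whose groups did not overlap, as 21.8% of all genes did not. Zic2 overlapped, at 82.3, 91.7 and 78.8 CPM with vehicle and 91.2, 80.6 and 93.4 CPM with Δ9-THC.

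Intervals for the other members in EpiLCs held 0. Pim2 was at 591, 625 and 454 CPM with vehicle and 447, 415 and 553 CPM in exposed EpiLCs, giving a log2(fold-change) of -0.24 (95% interval -0.61 to 0.14). Pou3f1 had -0.11 (-0.32 to 0.094), after vehicle values of 156, 137 and 158 CPM and exposed values of 134, 152 and 130 CPM. Otx2, with exposed values of 61.6, 82.1 and 68.6 CPM, had 0.052 (-0.30 to 0.40).

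The interval is widest for Pim2, Fgf5, Otx2 and Sox4, whose libraries spread by 14.7% to 17.2% of the mean. Fgf5 had -0.034 (-0.43 to 0.36), Sox4 0.19 (-0.16 to 0.53), Zic2 0.069 (-0.14 to 0.28), Sox3 0.064 (-0.15 to 0.28) and Foxd3 -0.020 (-0.20 to 0.16). These intervals do not show that exposure left the genes alike. Leaving out a single library turned the sign of Otx2, Fgf5, Sox3 and Foxd3, all of which were close to 0. The trend with GC content had a rho of -0.30 over 13696 genes in EpiLCs, and that with exon length a rho of 0.34.

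The last comparison tests whether the exposure effect differed between the cell types. No member passed, and 0.0322% of all genes did. Pou3f1 came closest, with an effect in EpiLCs that was higher than in ESCs by 0.86 ± 0.15 on the log2 scale (adjusted p = 0.0526). This difference passed with total-count scaling (0.0328) and with DESeq2 (0.00370), and had an adjusted p of 0.0811 to 0.221 without any 1 library. It did not pass with trends with GC content and length removed (0.68, adjusted p = 0.0804). Sox3 had a difference of 0.48 ± 0.14 (adjusted p = 0.162) and Foxd3 one of 0.34 ± 0.19 (0.447); with trends with GC content and length removed these were 0.26 and 0.15. Zic5, at 0.14 ± 0.07 (0.393), was positive in both cell types before this subtraction, and Zic2 (0.13 ± 0.10), Sox4 (0.062 ± 0.21), Pim2 (-0.042 ± 0.19) and Otx2 (-0.15 ± 0.19) had adjusted p of 0.626 to 0.954.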

How the data were processed

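The authors aligned reads with STAR (at most 1 mapping place per read), assigned them to genes by exon overlap with HTSeq (union mode, not strand-specific), removed genes with low counts and adjusted the counts with ComBat-seq; the batches are not named in the sources used here. bcl2fastq 2.19.1.403 is named in the submitters' processing notes, and the genome is given there as both mm10 and GRCm39. The deposited values are whole-number adjusted counts, 1 table per cell type, with 0 columns left unassigned. GENCODE M21 (GRCm38) gave symbols for 13083 of 13104 ESC and 13696 of 13717 EpiLC genes, and lengths, GC content and positions, which were not used in counting. Exposure was tested in each table (6 libraries) with edgeR 4.0.16 in R 4.3.3: quasi-likelihood test, TMM factors, a filter of over 10 counts in total per gene, Benjamini-Hochberg over all genes and a threshold of 0.05. Cell types and the interaction were tested in 1 model of 4 groups and 12 libraries on the 12410 genes in both tables. SEs are those implied by the F statistic, with intervals at 95%. CPM is on 1 TMM scale over all libraries, and profiles used a pseudocount of 0.5. Offsets from a spline with 5 degrees of freedom removed GC and length trends. DESeq2 1.42.0, other scalings, a filter of 10 counts in every library and leaving out libraries were alternatives. Counts were also simulated as independent libraries, with 200 genes changed by 1 on the log2 scale. Of these, 94.5% were recovered in the ESC comparison, 88% in the EpiLC comparison, 96.5% between vehicle cell types and 83% for the interaction. Of the calls, 7.80%, 3.30%, 3.5% and 5.14% were false. The deposited libraries mirrored each other by number, which the simulation did not copy, so these rates may not hold for them. Totals of 23427551 to 32096698 per library leave counting errors of 0.798% (Pim2 in vehicle EpiLCs) to 14.0% (Pou3f1 in exposed ESCs) for 1 library; these cover counting only.

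The members, lists and motifs were chosen with earlier results of these data known. Named from each list are, by rule, the 2 largest rises and 2 largest falls among genes called in that comparison, for each gene family the paralog with the highest EpiLC level per length, and for each member the 3 genes closest in profile. Some genes that this rule or the lists hold are not reported here.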

Additional observations from a re-analysis of the deposited data

How the results depend on the processing

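All 8 members kept their direction and their call between the cell types in vehicle under every alternative run, and in Δ9-THC all did but Foxd3, whose call was lost without exposed ESC replicate 1 (members called 7 to 8 over libraries left out). Within ESCs, genes called went from 906 to 5 with the replicate block, 2 with GC and length offsets, 3 with both, 31 in 1 model of 12 libraries, and 0 to 1 without any 1 library. Members called went from 3 to 0 in each of these, except 1 (Pou3f1) in the model of 12 libraries; DESeq2 called 0 of the 6 members with an adjusted p and gave Pou3f1 (unadjusted p = 1.70e-05) and Sox3 (0.0450) none. Within EpiLCs DESeq2 called 87 genes and the 12-library model 411, with 1 member (Zic5), against 0. For the interaction, 4 genes became 102 with total counts and 133 with DESeq2, each with 1 member (Pou3f1), and 0 with the replicate block, GC offsets, both, and without any 1 library. The ESC vehicle level of Zic5 was 37.2 CPM with total counts. The cause of these changes was not tested.

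Same-numbered vehicle and Δ9-THC libraries deviated with r of -0.99 to -0.98, and other pairs with 0.20 to 0.71. Between ESCs and EpiLCs of 1 exposure, same-numbered libraries had r of 0.037 to 0.16 and other pairs -0.14 to 0.070. In counts already adjusted for unnamed batches, these values do not show whether the numbers paired the libraries beforehand. With the replicate block the adjusted p in ESCs was 0.414 for Pou3f1, 0.482 for Sox3 and 0.523 for Zic5, and no call of a member changed outside ESCs.

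Signs turned for effects near 0. Zic2 in ESCs was 0.10 with GC and length offsets and 0.10 with the replicate block added. In EpiLCs Foxd3 was 0.0085 with total counts, 0.026 with offsets and 0.028 with offsets and block; without 1 library it ranged from -0.040 to 0.0037, Otx2 from -0.080 to 0.15, Fgf5 from -0.18 to 0.073 and Sox3 from -0.0090 to 0.12. In the interaction Pim2 was 0.020 with total counts and -0.17 to 0.049 without 1 library, and Sox4 -0.062 to 0.15.

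The depth limits Pou3f1, Otx2, Sox3 and Sox4 in ESCs, at 50.7 to 160 counts per library.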

Other observations

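Relatives of the members were present beside them. Of 22 paralogs 12 had values in EpiLCs. Per kb of exon, the highest relatives in vehicle EpiLCs are given for 4 of the families. They were Fgf4 at 58.2 CPM per kb (Fgf5: 6.28), Pim1 at 53.5 (Pim2: 199), Sox2 at 45.0 (Sox3: 13.0) and Sox12 at 34.4 (Sox4: 18.8). Over the bases that Sox4 does not share with another gene it was at 41.4. Shared bases of Sox12 were not examined, so the order of Sox4 and Sox12 is not set. Otx1, Crx, Pou3f2, Pou3f3, Pou3f4, Foxd1, Foxd2 and Foxd4 had no row in the EpiLC table. Between vehicle cell types, Sox11 (3.74 ± 0.16) and Sox1 (1.49 ± 0.19) rose the most on the log2 scale, and Fgf3 (-2.10 ± 0.15) and Sox2 (-2.03 ± 0.11) fell the most. Of 11 paralogs tested in exposed ESCs, edgeR called 1 lower, Sox12 (-0.21 ± 0.03, adjusted p = 0.0283), and 1 higher, Pim1 (0.17 ± 0.03, adjusted p = 0.0396). Of all genes 6.91% were called there, and only 0 to 1 genes when any 1 library was left out.

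The spread between the 3 libraries was below the counting error expected for independent libraries in 12 of 34 combinations of member and group, 10 of 16 in ESCs and 2 of 18 in EpiLCs. The EpiLC pair was Foxd3 with vehicle (2.83% against 7.06%) and with Δ9-THC (1.96% against 7.24%).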
